A study of Saccharomyces cerevisiae with 4 samples.

Results

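The 42 genes described here are nuclear yeast genes for proteins of the 54S subunit, the large subunit of the mitochondrial ribosome. They were taken by gene identifier from the 6673 genes listed for each library. All 42 were found, and all 42 passed the filter of a mean RPKM (reads scaled to gene length and library depth) no lower than 1. In the R64 annotation, all 42 have a product named as a mitochondrial 54S ribosomal protein, out of 46 such products. The study sequenced 2 libraries of a wild type (WT) strain and 2 of a strain without *PUF3* (*PUF3Δ*). Both strains are listed as BY4742 with the genotype MATa, *his3Δ1*, *leu2Δ0*, *met15Δ0* and *ura3Δ0*, while the study's methods name BY4741. Both were moved from YPD to YPEG, in which glycerol and ethanol replace glucose. Each arm is a single strain, and whether the replicates came from separate cultures is not stated, so p-values measure only the spread between these libraries.

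The mitochondrial ribosome translates the few messages of mitochondrial DNA, most of them for membrane subunits of the respiratory chain and the ATP synthase. Its large subunit holds the 21S rRNA, transcribed from mitochondrial DNA, and proteins that are made in the cytosol and imported. Some of these have counterparts in bacterial ribosomes (names starting with uL or bL), while others are specific to mitochondria (names starting with mL). Puf3p is an RNA binding protein (RBP) of the Pumilio family that binds a short element, TGTANATA in DNA letters with N for any base, downstream of the stop codon and is known for promoting the decay of messages for mitochondrial proteins, those of the mitochondrial ribosome foremost.

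The element was present in all of the 42 genes. On the coding strand, TGTANATA occurred within 200 nt past the stop codon in 42 of 42 genes, against 844 of 6008 nuclear protein-coding genes of R64 (14.05%). On the opposite strand of the same window, the element was present in 8 of the 42 genes (19.05%) and in 13.2% of all. An element with a C at the second base before it, counted among the elements above as well, was found in 35 of the 42 (83.3%) and in 4.21% of all genes. The 42 genes held 50 elements, 1 in 34 genes and 2 in 8 genes. The first element started between 13 and 136 nt after the stop codon, with a median of 50 nt, against 58 nt over the 844 genes with an element. The variable base was A in 20 elements, T in 19, C in 10 and G in 1.

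The elements of the 6 genes with the highest and the 6 with the lowest log2 fold change in *PUF3Δ* are printed here, because genes at both ends of the range carry them. Each is given 5′ to 3′ on the coding strand of R64 from RefSeq, with the element in capitals and 6 bases on either side. The first 7 belong to the genes at the upper end and the other 7 to those at the lower end.
MRPL49 (YJL096W), 13 nt after the stop codon: gggataTGTACATAtacgca
MRPL49 (YJL096W), 41 nt after the stop codon: aaatcaTGTAAATAacaata
MHR1 (YDR296W), 58 nt after the stop codon: agctcaTGTAAATAgtgcaa
MRPL6 (YHR147C), 86 nt after the stop codon: atacctTGTAAATAtcctat
MRPL9 (YGR220C), 33 nt after the stop codon: caatcaTGTACATAcatcaa
MRP7 (YNL005C), 52 nt after the stop codon: aatgccTGTAAATAttacta
MRPL16 (YBL038W), 26 nt after the stop codon: tatacaTGTATATAactatt
MRP20 (YDR405W), 73 nt after the stop codon: cacactTGTATATAcggagc
MRP49 (YKL167C), 25 nt after the stop codon: tgttcaTGTATATAtcaaaa
MRPL32 (YCR003W), 46 nt after the stop codon: taagccTGTATATAgaaact
MRPL38 (YKL170W), 96 nt after the stop codon: accaccTGTATATAttgctt
MRPL37 (YBR268W), 33 nt after the stop codon: tatcctTGTAAATAaatatg
MRPL19 (YNL185C), 87 nt after the stop codon: ctattcTGTAAATAtgtata
MRPL19 (YNL185C), 95 nt after the stop codon: taaataTGTATATAagtttt

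Each of the 6 upper genes has an element with a C 2 bases upstream, and so do 5 of the 6 lower genes, the exception being MRPL19. Its 2 elements follow each other directly. In R64, the coding sequence of MRP20 spans chrIV:1277646-1278437, that of MHR1 chrIV:1055212-1055892 and that of MRPL49 chrX:246490-246975, each in 1 exon. The element of MRP20 lies at chrIV:1278510-1278517 and that of MHR1 at chrIV:1055950-1055957, both on the plus strand, and none of the 50 elements lies in another coding sequence.

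As a check of the labels, *PUF3* itself had an RPKM of 29.2 and 35.0 in WT and of 0.113 and 0.280 in *PUF3Δ*, the latter from 2 and 6 reads. LYS2, which BY4742 lacks, had between 1 and 4 reads in a library. MET17, the gene that *met15Δ0* removes, drew 5041 and 5868 reads from the WT libraries against 1120 and 1196 from the *PUF3Δ* libraries, although the listed genotype lacks it. MET17 overlaps 1 other listed gene. The libraries held between 6703910 and 8228693 reads on genes. Across all 5860 genes tested, the median log2 fold change of *PUF3Δ* over WT was -0.39 on log2(RPKM + 1), and median-of-ratios scaling moved it to -0.01. Longer genes had higher log2 fold changes (Spearman's rho 0.350 over the 5860 genes). The 42 genes are short, with a median listed length of 664 bases against 1087 over all listed genes. Calls for the 42 genes are therefore given on 3 scales, as deposited, after median-of-ratios scaling of the libraries, and after a loess correction of each library for gene length and GC content.

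The messages of the 42 genes had a similar total in both strains on the deposited scale. Their summed RPKM was 6381 and 6146 in WT and 5867 and 6116 in *PUF3Δ*, so that the *PUF3Δ* libraries lay just under the WT libraries (two-sided exact permutation of the 4 libraries, p = 0.33, the lowest that this design can give). The median of the genes was 116 and 116 RPKM in WT and 105 and 114 in *PUF3Δ*. Over the same libraries, the median RPKM of all genes tested went from 61.7 and 61.9 to 46.0 and 47.1. Relative to the typical gene, the 42 genes were thus higher in *PUF3Δ*, and the median of their log2 fold changes (-0.05) lay 0.34 above that of all genes. The direction of the sum depends on the scaling, since its log2 ratio was -0.06 before and 0.32 after the median-of-ratios step.

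Levels differed widely between the genes. In WT, 18 genes had a mean under 100 RPKM, 19 had a mean from 100 to 200 and 5 had 200 or more. Each gene rested on between 149 and 2515 reads in a library, and the median SD between replicates was 3.65% of the mean in WT and 3.59% in *PUF3Δ*. The order of levels was mostly kept, with a Spearman's rho of 0.822 over the 42 genes between the strains, against 0.976 between the WT libraries and 0.986 between the *PUF3Δ* libraries. Many neighbours in that order could not be told apart, since only 12 of the 41 neighbouring pairs in WT and 17 of 41 in *PUF3Δ* had libraries that did not overlap.

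The highest levels were those of IMG1 and MRPL28. IMG1 (YCR046C, bL19m, named for the integrity of the mitochondrial genome) had an RPKM of 649 and 555 in WT and 549 and 564 in *PUF3Δ*. Its libraries overlapped, and its log2 fold change was -0.11 ± 0.09 (standard error, SE, n = 2 per strain, limma-adjusted p = 0.32), with 0.0032 without the first WT replicate and -0.22 (adjusted p = 0.038) without the second. MRPL28 (YDR462W, mL40, a protein of the central protuberance) had 653 and 531 in WT and 455 and 493 in *PUF3Δ*. MRPL28 was lower in *PUF3Δ* as deposited, at -0.31 ± 0.11 SE (limma-adjusted p = 0.036), a call that was lost without the first WT replicate (adjusted p = 0.12) or either *PUF3Δ* replicate (adjusted p = 0.20 and 0.080) and that turned to 0.075 (adjusted p = 0.57) under median-of-ratios scaling. MRPL4 (YLR439W, uL29m, at the exit of the peptide tunnel) came next over the 4 libraries, with 336 and 318 in WT and 270 and 306 in *PUF3Δ*, which did not pass the test (log2 fold change -0.19, limma-adjusted p = 0.096). IMG1 and MRPL28 together made 20.4% and 17.7% of the summed RPKM in WT and 17.1% and 17.3% in *PUF3Δ*.

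**Figure D1:**
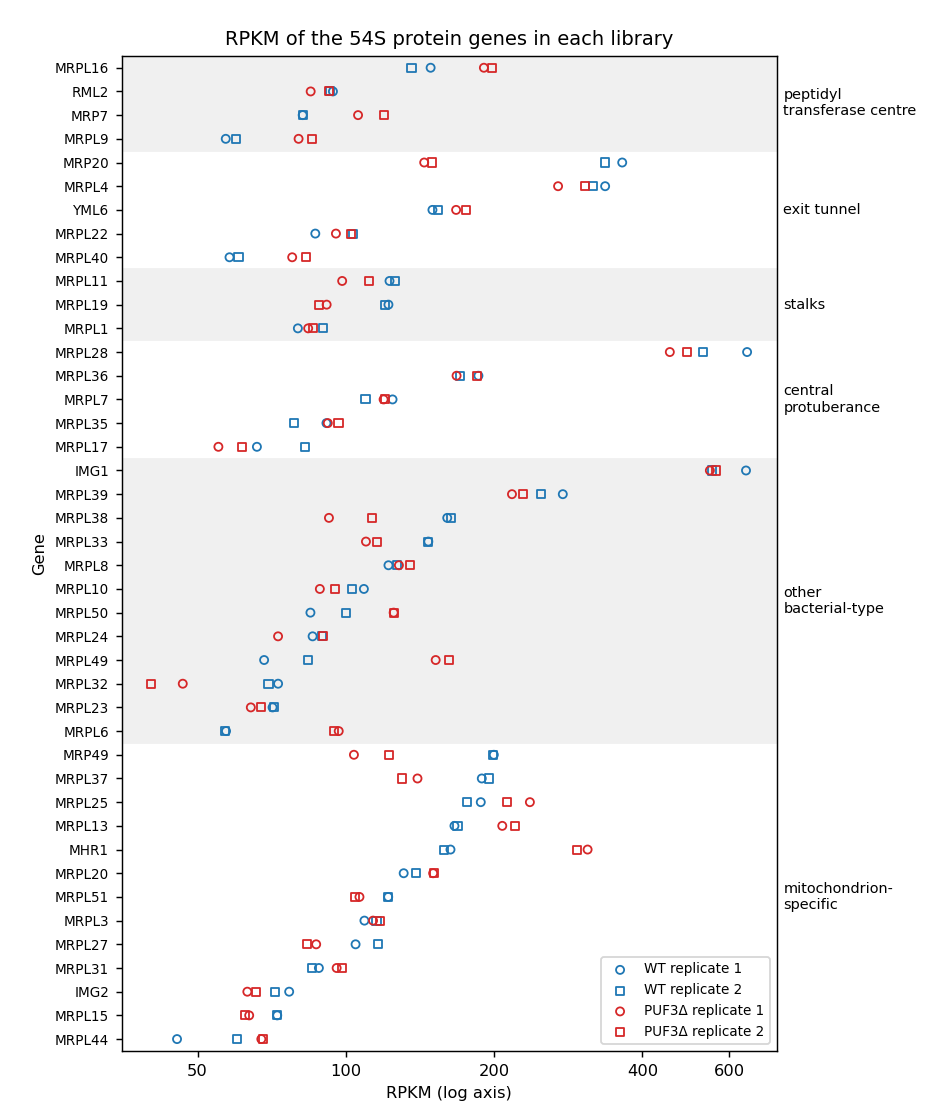
RPKM (log axis) of the 42 genes for 54S proteins in each of the 4 libraries, grouped by the place of the protein in the subunit and ordered by WT mean within a group. IMG1 and MRPL28 stand above the other genes in all 4 libraries, and MRP20, MRP49, MRPL49 and MHR1 have their WT and PUF3Δ points clearly apart.

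The variation among the genes was measured by the coefficient of deviation (CD), the SD over the genes divided by their mean, here on untransformed RPKM, whereas the study's methods describe a log transformation first. On RPKM it was 0.873 and 0.749 in the WT libraries and 0.723 and 0.723 in the *PUF3Δ* libraries, lower in *PUF3Δ* in both (two-sided exact permutation, p = 0.33, again the lowest possible). The distance rested mostly on the first WT replicate, without which the log2 ratio of the CD went from -0.17 to -0.05. Without IMG1 and MRPL28, 2 genes chosen after their values were seen, the CD was 0.561 and 0.509 in WT and 0.491 and 0.480 in *PUF3Δ*. On the log2(RPKM + 1) scale it was 0.125 and 0.113 in WT and 0.112 and 0.111 in *PUF3Δ*.

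Gene by gene, the deposited values moved in both directions. In limma on log2(RPKM + 1), with Benjamini-Hochberg adjustment over all genes tested, 11 of the 42 genes were higher in *PUF3Δ* (26.2%, against 18.9% of all genes tested), 13 were lower (31.0%, against 54.2%) and 18 did not pass an adjusted p of 0.05. The count of lower genes was 8 without the first and 7 without the second *PUF3Δ* replicate. Both *PUF3Δ* libraries lay above both WT libraries in 16 genes (38.1%, against 24.9% of all genes) and below them in 19 genes (45.2%, against 62.6%), and 7 genes overlapped. After median-of-ratios scaling, 24 genes were higher (57.1%, against 33.9%) and 3 lower (7.14%, against 33.2%). The loess correction gave 31 higher genes (73.8%, against 31.5%) and 1 lower gene (2.38%, against 31.9%).

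The same 11 genes were called higher on all 3 scales (26.2% of the 42, against 17.9% of all genes). They were MRPL6, MRPL9, MRPL13, MRPL16, MRPL25, MRPL40, MRPL44, MRPL49, MRPL50, MRP7 and MHR1. MRP20 alone was called lower on all 3 (2.38%, against 28.3%). Median-of-ratios scaling and the loess correction both moved all 42 genes upwards. Agreement of higher calls over the scales therefore adds little to the call as deposited. Over 16 alternatives, 8 of the 11 kept their call in every alternative that included them, without MRPL13, MRPL25 and MRPL44, and so did MRP20. MRPL9, which overlaps another listed gene, was included in 15 of them and the other genes in all. The share of all genes that kept a call in this way is not given, so the count has no background beside it. Of the 13 genes lower as deposited, 10 were no longer called after median-of-ratios scaling, and 3 of them (MRPL11, MRPL39 and MRPL51) were called higher after the loess correction. MRPL4 was the only gene without a call on any of the 3 scales.

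**Figure D2:**
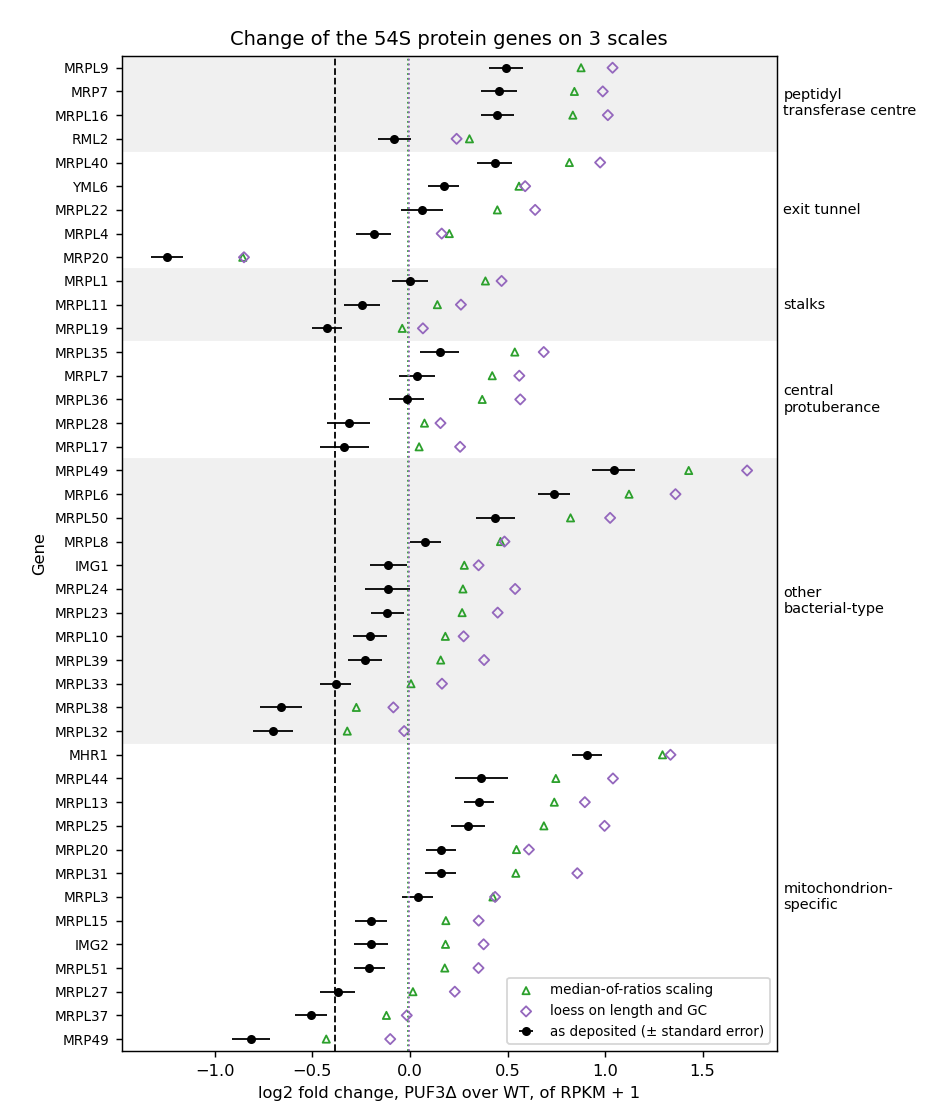
log2 fold change of PUF3Δ over WT on log2(RPKM + 1) for each of the 42 genes, as deposited (black points, bars are ± 1 standard error, n = 2 per strain), after median-of-ratios scaling (triangles) and after loess correction (diamonds). The dashed line marks the median of all genes as deposited (-0.39) and the dotted lines the medians on the other scales (-0.01). MRP20 lies furthest to the left on all 3 scales.

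Around the peptidyl transferase centre, where peptide bonds are formed, 3 of 4 genes rose as deposited, against 18.9% of all genes tested. The remaining gene was called higher after median-of-ratios scaling and after loess correction, as were 33.9% and 31.5% of all genes. MRPL9 (uL3m) had an RPKM of 57.1 and 59.9 in WT and 80.2 and 85.3 in *PUF3Δ* (log2 fold change 0.49 ± 0.09 SE, limma-adjusted p = 0.0018). An unnamed open reading frame on the other strand overlaps MRPL9 over 303 bases but was listed at no more than 0.396 RPKM. MRP7 (bL27m, whose bacterial counterpart reaches towards the bound tRNA) had 81.8 and 81.7 in WT and 106 and 120 in *PUF3Δ* (0.46 ± 0.09 SE, adjusted p = 0.0032). MRPL16 (uL16m) went from 149 and 136 in WT to 191 and 198 in *PUF3Δ* (0.45 ± 0.08 SE, adjusted p = 0.0022). For these 3 genes the strains did not overlap. RML2 (YEL050C, uL2m), with 94.2 and 93.1 in WT and 84.9 and 92.3 in *PUF3Δ*, had a log2 fold change of -0.08 (adjusted p = 0.42) as deposited and of 0.31 (adjusted p = 0.014) after median-of-ratios scaling.

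Of the 5 genes for proteins that line the peptide tunnel and its exit, 1 fell, 1 rose and 3 had no call as deposited. Over all genes tested, 54.2% fell and 18.9% rose on that scale. After median-of-ratios scaling, and likewise after the loess correction, 3 of the 5 were higher and 1 was lower. Over all genes tested, 33.9% and 31.5% were higher and 33.2% and 31.9% were lower on these scales. MRP20 (uL23m) sits at the tunnel exit, where new proteins leave the ribosome towards the inner membrane. Its RPKM was 364 and 335 in WT and 144 and 150 in *PUF3Δ*, a drop to 0.420 of the WT mean (log2 fold change -1.24 ± 0.08 SE, limma-adjusted p = 2.4e-05). It went from the rank of 3 among the 42 genes in WT to the rank of 13 in *PUF3Δ*. MRPL40 (YPL173W, uL24m), its neighbour at the exit, moved the other way, with 58.1 and 60.6 in WT and 77.8 and 83.1 in *PUF3Δ* (0.43 ± 0.09 SE, adjusted p = 0.0033). YML6 (uL4m) and MRPL22 (uL22m), which reach into the tunnel in bacterial ribosomes, had 0.17 (adjusted p = 0.079) and 0.06 (adjusted p = 0.61), with no call as deposited. After median-of-ratios scaling they had 0.56 (limma-adjusted p = 6.9e-04) and 0.45 (limma-adjusted p = 0.0083).

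Among the proteins of the stalks, flexible arms that bind tRNA and translation factors, 2 of 3 genes were lower as deposited, where 54.2% of all genes tested were lower. MRPL19 (uL11m) had 122 and 120.0 in WT and 91.4 and 88.4 in *PUF3Δ* (-0.42 ± 0.08 SE, limma-adjusted p = 0.0022). MRPL19 overlaps an unnamed open reading frame on the same strand by 113 bases, listed at 34.7 to 43.7 RPKM. The log2 fold change of MRPL19 was 0.067 (adjusted p = 0.49) after the loess correction. MRPL11 (uL10m) had -0.25 (adjusted p = 0.043) as deposited and 0.26 (adjusted p = 0.035) after the loess correction. MRPL1 (uL1m) had 79.9 and 89.8 in WT and 83.9 and 85.9 in *PUF3Δ*, with 0.00 (adjusted p = 0.98) as deposited and 0.39 (adjusted p = 0.0080) after median-of-ratios scaling. On the scaled and corrected values, 1 and 2 of the 3 stalk genes were higher and none was lower.

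In the central protuberance, at the top of the subunit, none of the 5 genes was higher as deposited (18.9% of all genes) and 2 were lower (54.2% of all genes), MRPL28 as given above and MRPL17 (YNL252C, mL46). MRPL17 had 66.0 and 82.6 in WT and 55.1 and 61.7 in *PUF3Δ* (-0.34 ± 0.13 SE, limma-adjusted p = 0.045). This call was lost without the second WT replicate (adjusted p = 0.17) and without either *PUF3Δ* replicate (adjusted p = 0.24 and 0.078), and the value was 0.047 under median-of-ratios scaling. MRPL7 (uL5m), MRPL35 (mL38) and MRPL36 (bL31m) had values between -0.02 and 0.15 as deposited. They were called higher on the other scales, with 0.42, 0.54 and 0.37 after median-of-ratios scaling. Of all genes, 33.9% were higher after median-of-ratios scaling and 31.5% after the loess correction.

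Of the 12 other proteins of bacterial type, 3 rose as deposited (25%, against 18.9% of all genes) and 5 had no call. The other 4 fell (33.3%, against 54.2%). After the loess correction, 9 were higher (75%, against 31.5%) and none was lower (31.9% of all genes). MRPL49 (bL21m, an rRNA-binding protein) had the highest log2 fold change of the 42 genes. Its RPKM was 68.3 and 83.8 in WT and 152 and 162 in *PUF3Δ*, 2.06 times the WT mean (1.04 ± 0.11 SE, limma-adjusted p = 1.5e-04). MRPL6 (uL6m) followed, with 57.1 and 56.8 in WT and 96.8 and 94.8 in *PUF3Δ* (0.74 ± 0.08 SE, adjusted p = 1.7e-04). MRPL50 (YNR022C, bL9m) had 84.8 and 100.2 in WT and 125 and 125 in *PUF3Δ* (0.44 ± 0.10 SE, adjusted p = 0.0060).

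At the lower end of this group stood MRPL32 and MRPL38. MRPL32 (bL32m) is cut to its mature form inside mitochondria by the m-AAA protease before it joins the ribosome. It had 72.9 and 69.7 RPKM in WT and 46.7 and 40.3 in *PUF3Δ*, from 173 and 181 reads in the latter (-0.70 ± 0.10 SE, limma-adjusted p = 6.9e-04). MRPL38 (uL14m, which lies at the face turned to the small subunit) had 161 and 163 in WT and 92.4 and 113 in *PUF3Δ* (-0.66 ± 0.11 SE, adjusted p = 0.0012). An open reading frame on the other strand overlaps MRPL38 over 366 bases and was listed at no more than 2.11 RPKM. After the loess correction the values were -0.03 (adjusted p = 0.82) for MRPL32 and -0.08 (adjusted p = 0.52) for MRPL38. The 2 other lower genes were MRPL33 (uL30m), with -0.38, and MRPL39 (bL33m), with -0.23, the latter the shortest of the 42 genes. Beside IMG1, the genes of this group without a call were MRPL8 (bL17m), MRPL10 (uL15m), MRPL23 (uL13m) and MRPL24 (bL28m), between -0.20 and 0.08. All of them were called higher after the loess correction.

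The genes for the 13 further proteins without a bacterial counterpart moved in both directions as deposited. Of these, 4 were higher (30.8%, against 18.9% of all genes), 4 lower (30.8%, against 54.2%) and 5 without a call. After the loess correction, 10 were higher (76.9%, against 31.5%) and none was lower (31.9% of all genes). MHR1 (mL67) is also known for its part in recombination of mitochondrial DNA. It had an RPKM of 163 and 158 in WT and 310 and 295 in *PUF3Δ*, a rise to 1.88 times the WT mean (log2 fold change 0.91 ± 0.08 SE, limma-adjusted p = 5.5e-05), from 820 to 1632 reads in a library. MRPL13 (mL50), MRPL44 (YMR225C, mL53) and MRPL25 (mL59) rose by less, with 0.35 (adjusted p = 0.0048), 0.37 (adjusted p = 0.043) and 0.30 (adjusted p = 0.017).

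MRPL44 had the lowest mean of the 42 genes in WT, with 45.4 and 60.1 RPKM in WT and 67.4 and 67.8 in *PUF3Δ*. Its call was lost without the first WT replicate (0.17, adjusted p = 0.13) and without either *PUF3Δ* replicate (adjusted p = 0.14 and 0.15). MRPL44 has 2 coding exons in R64, as has YML6, and for both the listed length behind the RPKM spans the intron. MRP49 (mL61) was the lowest of this group in its change, with 200 and 199 in WT and 104 and 123 in *PUF3Δ* (-0.82 ± 0.10 SE, adjusted p = 2.6e-04), which became -0.10 (adjusted p = 0.40) after the loess correction. MRPL37 (mL54) had 189 and 195 in WT and 140 and 130 in *PUF3Δ* (-0.51 ± 0.08 SE, adjusted p = 0.0010) and -0.02 (adjusted p = 0.87) after that correction. MRPL27 (mL41) and MRPL51 (mL43) were lower by -0.37 and -0.21 as deposited. An open reading frame on the other strand overlaps MRPL51 over 323 bases and was listed at no more than 10.9 RPKM. MRPL3 (mL44), which has the fold of an RNase III enzyme, had 0.04 (adjusted p = 0.67). The other genes without a call were MRPL15 (mL57), IMG2 (mL49), MRPL20 (mL58) and MRPL31 (mL60), between -0.20 and 0.16, and they too were called higher after the loess correction.

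**Figure D3:**
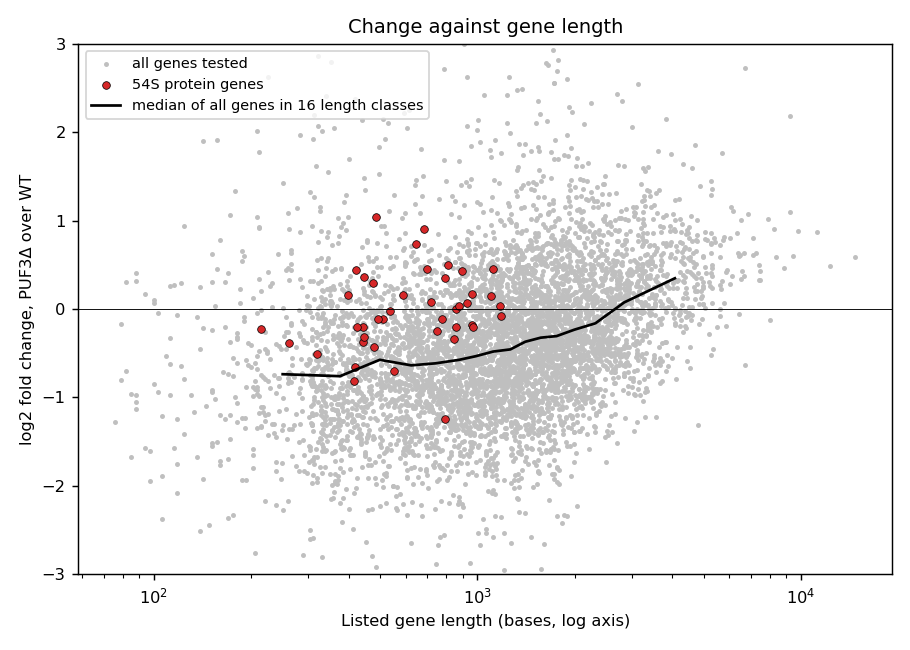
log2 fold change of PUF3Δ over WT as deposited against listed gene length (log axis) for all 5860 genes tested (grey), with the 42 genes for 54S proteins in red and the median of all genes in 16 length classes as a line. Most red points lie above the line, MRP20 lies well below it, and 27 genes fall outside the plotted range of -3 to 3.

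Among the 42 genes, the log2 fold change had a Spearman's rho of 0.316 with listed length, and of 0.180 after the loess correction. The 21 shorter genes had a median of -0.20 and the 21 longer genes of 0.04, while the 2742 other genes tested in the same length range had a median of -0.61. The part of gene length in the changes of single genes was not tested. With the WT mean, it had a rho of -0.348, although the WT value enters both. These are descriptions over 42 genes measured in the same libraries. In RNA from whole cultures, a change in every cell cannot be told apart from a larger change in some of the cells.

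The form of the element was set beside the change, as a description. All of the 11 higher genes had an element with a C 2 bases upstream, as did 10 of the 13 lower genes and 14 of the 18 without a call. The 7 genes without that C had a median log2 fold change of -0.20 and values between -0.42 and 0.17, against -0.02 in the other 35, whose values ran from -1.24 to 1.04. Genes with 1 element had a median of -0.02 and those with 2 elements of -0.06. Of the genes with a single element, the 17 with A as the variable base had a median of 0.06, the 5 with C had 0.15 and the 12 with T had -0.16. The distance from the stop codon to the first element had a Spearman's rho of -0.053 with the change.

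**Figure D4:**
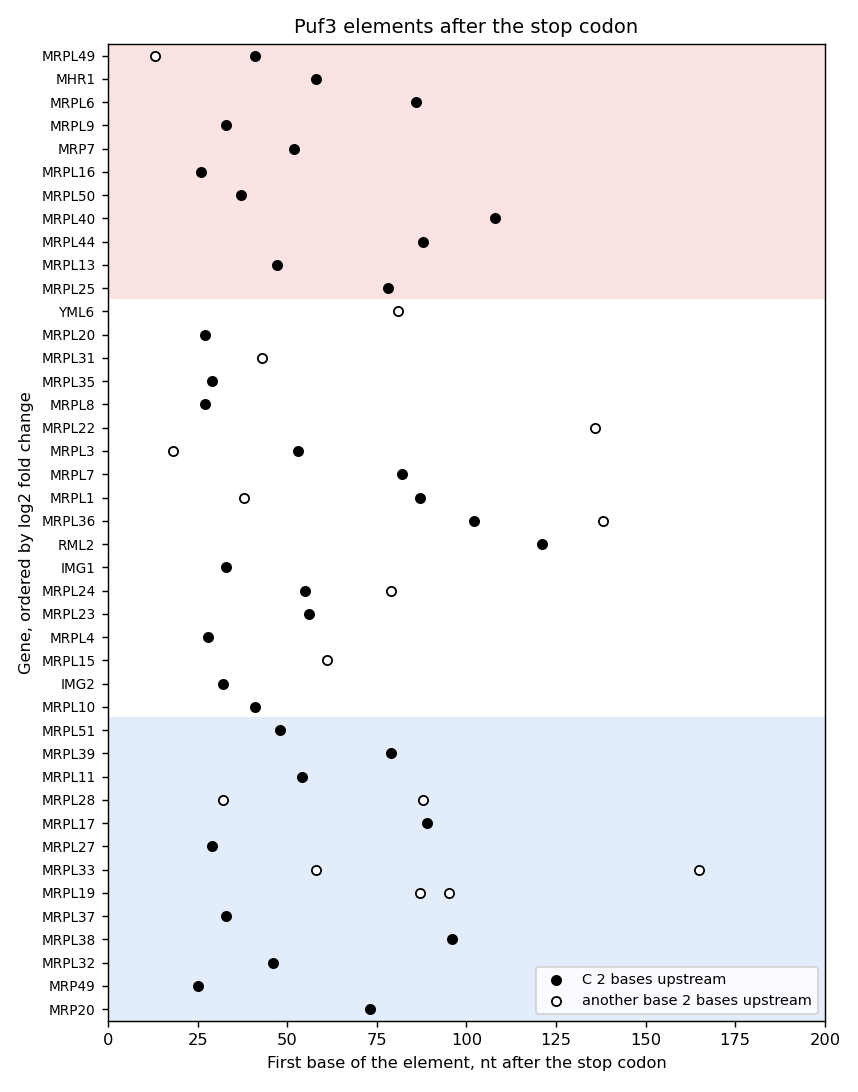
Position of each TGTANATA element of the 42 genes, as the distance in nt from the stop codon to its first base, with genes ordered from the highest to the lowest log2 fold change. Filled points have a C 2 bases upstream, open points another base, and shading marks genes called higher (pink) or lower (blue) in PUF3Δ as deposited. The 11 genes shaded pink each have a filled point, and filled points run through the blue rows as well.

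R64 names 4 more 54S proteins that are not among the 42 genes. As deposited, 3 of them rose (75%, against 18.9% of all genes tested). MNP1 (YGL068W, bL12m, the stalk protein that is present in several copies) had an RPKM of 252 and 251 in WT and 539 and 494 in *PUF3Δ* (log2 fold change 1.03 ± 0.08 SE, limma-adjusted p = 3.9e-05). MNP1 overlaps an open reading frame on the other strand by 428 bases, listed at no more than 2.35 RPKM. MRX14 (YDR115W, bL34m) had 155 and 150.5 in WT and 241 and 211 in *PUF3Δ* (0.56, adjusted p = 0.0011), and RTC6 (YPL183W-A, bL36m) had 269 and 239 in WT and 329 and 315 in *PUF3Δ* (0.34, adjusted p = 0.0095). The call of RTC6 was lost without the first *PUF3Δ* replicate (adjusted p = 0.083). MRP35 (YNL122C, bL35m) was at 24.9 and 25.4 in WT and 25.6 and 20.1 in *PUF3Δ*, from 57 to 73 reads (-0.14, adjusted p = 0.38). All of the 4 genes have TGTANATA in the window.

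The 31 genes listed for the small subunit (37S) include RSM22, whose R64 product is a tRNA methyltransferase. As deposited, they gave 10 higher (32.3%, against 18.9% of all genes), 10 lower (32.3%, against 54.2%) and 11 without a call. Their median log2 fold change was 0.02, against -0.39 over all genes. After median-of-ratios scaling, 19 of them were higher (61.3%, against 33.9%) and 1 lower (3.23%, against 33.2%). TGTANATA was present in 30 of the 31, the exception being RSM22. These values stand beside those of the large subunit, and no difference between the subunits was tested.

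The 11 genes for modification, assembly and anchoring of the large subunit also moved in both directions, with 4 higher, 4 lower and 3 without a call as deposited, against 18.9% higher and 54.2% lower over all genes. After median-of-ratios scaling 7 of them were higher (63.6%, against 33.9% of all genes) and 2 lower (18.2%, against 33.2%). After the loess correction 5 were higher (45.5%, against 31.5%) and 1 lower (9.09%, against 31.9%). YTA12 and AFG3, which encode the m-AAA protease that matures MRPL32, rose, YTA12 from 52.0 and 56.7 RPKM in WT to 150.1 and 163 in *PUF3Δ* (log2 fold change 1.51 ± 0.09 SE, limma-adjusted p = 2.0e-05) and AFG3 from 71.5 and 67.3 to 122 and 116 (0.77 ± 0.08 SE, adjusted p = 1.6e-04). OXA1, the insertase that receives new proteins at the tunnel exit, went from 183 and 197 to 304 and 297 (0.66 ± 0.08 SE, adjusted p = 2.4e-04). MBA1, a membrane anchor of the ribosome, had 49.4 and 47.1 in WT and 56.2 and 62.6 in *PUF3Δ* (0.29, adjusted p = 0.028), a call lost without the second WT replicate (adjusted p = 0.061) or either *PUF3Δ* replicate (adjusted p = 0.056 and 0.21).

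The 4 lower genes act on the 21S rRNA or on assembly. PUS5, a pseudouridine synthase of the 21S rRNA, went from 67.7 and 68.4 RPKM to 32.1 and 29.3 (-1.12 ± 0.10 SE, limma-adjusted p = 5.6e-05) and was lower on all 3 scales. MRM2, a methyltransferase of the same rRNA, had 83.7 and 79.3 in WT and 50.9 and 49.8 in *PUF3Δ* (-0.68 ± 0.09 SE, adjusted p = 3.3e-04), which became -0.13 (adjusted p = 0.25) after the loess correction. The GTPase MTG1 had 45.2 and 42.8 in WT and 30.9 and 31.8 in *PUF3Δ* (-0.48, adjusted p = 0.0032). MTG2, also a GTPase, had 27.2 and 27.9 in WT and 21.2 and 19.6 in *PUF3Δ* (-0.42, adjusted p = 0.011). Neither was called after median-of-ratios scaling, with -0.10 and -0.04. The call of MTG2 was lost without the second *PUF3Δ* replicate (adjusted p = 0.085). TGTANATA was present in 8 of the 11 genes, with PUS5, MTG1 and MRM1 as the exceptions.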

How the data were processed

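RNA selected with oligo-dT was sequenced from 2 WT and 2 *PUF3Δ* libraries. The authors mapped the reads by SOAP2 with no more than 2 mismatches and deposited RPKM values for 6673 genes. The submitters' notes name build R64. Neither the SOAP2 version nor how multiply mapped or antisense reads were counted is given in the sources used here. Multiplied by listed length, 100% of the values were whole reads within 0.1 read. The chi-square between replicates was 11.7 per degree of freedom in WT and 4.60 in *PUF3Δ*, above sampling noise.

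The test was limma 3.58.1 (R 4.3.3, eBayes with trend) on log2(RPKM + 1) for the 5860 genes whose mean RPKM reached 1, at a Benjamini-Hochberg adjusted p under 0.05, after a test on simulated data. The pseudocount understates changes of low genes. The loess correction used R's lowess with a span of 0.4, first on length and then on GC content. Alternatives were other pseudocounts, filters, scalings, a replicate block, limma without trend, voom on recovered reads (added after the data were seen), omission of overlapping genes, and leaving out each library. R64 coordinates are from RefSeq, matched by identifier (5972 genes), with figures and counts from Python 3.11.15.

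The members, lists and tests were chosen with earlier results of these data known. Full values are given for the 6 highest and 6 lowest log2 fold changes, the 3 highest and 3 lowest levels, MHR1, MRP20, MRPL40, *PUF3*, the 54S genes outside the 42, and called genes of the assembly list. Other genes were chosen after their values were seen.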

Additional observations from a re-analysis of the deposited data

How the results depend on the processing

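The counts and the median moved with scaling. Genes higher in *PUF3Δ* numbered 11 as deposited, 24 after median-of-ratios scaling, 22 after quantile normalization, 31 after loess correction and 30 with that correction and the replicate block, and lower genes 13, 3, 5, 1 and 1. The median log2 fold change of the 42 genes was 0.34, 0.26, 0.46 and 0.46 under these scalings, and its distance from all genes 0.47 with loess, with and without the block. The log2 ratio of summed RPKM turned to 0.32 after median-of-ratios scaling, 0.15 after quantile normalization and 0.46 after loess correction. Limma without trend called 8 genes lower. Without 1 library, 9 to 11 genes were higher and 7 to 13 lower, and the median ran from -0.11 to 0.028. Voom on recovered reads, added after the data were seen, called 10 higher (23.8%, against 19.6% of all genes) and 11 lower (26.2%, against 54.5%). No share over all genes is given for quantile normalization, the replicate block, limma without trend or the fits without 1 library.

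No shared effect of the replicate number was seen (r = -0.014 over 5860 genes between the deviations of the replicates in WT and *PUF3Δ*). This cannot show whether the libraries were paired, which the labels do not state. A replicate block gave 11 higher and 9 lower genes.

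Many genes changed sign. Of the 42, 16 went from below to above 0 after median-of-ratios scaling and 17 after loess correction, and none went the other way. Median-of-ratios scaling divided the WT libraries by 1.145 and 1.148 and the *PUF3Δ* libraries by 0.867 and 0.885. That step raises the log2 fold change of all 42 genes, so under it none could go the other way. Among the genes given with full values, the log2 fold change after median-of-ratios scaling was 0.28 for IMG1, 0.075 for MRPL28, 0.20 for MRPL4, 0.047 for MRPL17 and 0.23 for MRP35. After quantile normalization it was 0.044 for MRPL17, 0.31 for MRP35 and 0.033 for MTG2. After loess correction, with or without the block, it was 0.067 for MRPL19, 0.35 for IMG1, 0.16 for MRPL28, 0.16 for MRPL4, 0.26 for MRPL17, 0.575 for MRP35 and 0.072 for MTG1. Leaving out 1 library gave between -0.22 and 0.0032 for IMG1, the latter without the first WT replicate, and between -0.31 and 0.027 for MRP35, the latter without the second *PUF3Δ* replicate. The cause of the sign changes in the other settings was not tested. The element was found in 37 of the 42 genes within 100 nt and in 42 within 300 nt. DESeq2 and edgeR, listed as alternatives, were not run, and voom on recovered reads was run in their place. The relation of the changes to gene length cannot be told apart from strain.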
